A study of Mus musculus with 8 samples.

Results

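The genes described here encode 10 subunits or partners of the chromatin complexes that keep genes silent in pluripotent cells: Ezh2, Eed, Suz12 and Jarid2 of Polycomb repressive complex 2 (PRC2), Kdm2b and Cbx7 of Polycomb repressive complex 1 (PRC1), Setdb1 and Trim28 of the pathway that methylates histone H3 at lysine 9 (H3K9), and Mbd3 and Chd4 of the nucleosome remodelling and deacetylase complex NuRD. They were chosen by name, and a probe belonged to them when its RefSeq transcript was one of theirs, which gave 12 of the 55667 probes measured and 10 of the 14390 named genes tested. Each value is a log2 signal minus the 75th percentile of all signals on the same array: a value of 0 means a signal equal to that percentile, and a difference of 1 is a doubling. Levels are comparable between arrays for 1 probe, and not between probes.

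The samples were undifferentiated mouse cells of the strain C57BL/6J, and total RNA of each was hybridised to 1 one-colour Agilent array. OSKH induced pluripotent stem cells (iPSCs) were on 4 arrays, OSK iPSCs, the control group by the series' own wording, on 3 arrays, and the embryonic stem cell (ESC) line B6J-23 on 1 array. OSK is taken to mean that the cells were reprogrammed with Oct4, Sox2 and Klf4, and the H to mean the oocyte linker histone H1foo in addition, since the labels do not write the names out. Neither the starting cell, the vector nor the number of clones is given in the labels, and the ESC group is 1 line on 1 array.

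PRC2 places methyl groups on lysine 27 of histone H3, and PRC1 reads that mark or places ubiquitin on histone H2A. In embryonic stem cells both sit at the promoters of developmental regulators and hold them at low levels until differentiation. Trim28, brought to DNA by zinc finger proteins, recruits Setdb1 to retroviral repeats and to some germline genes, and NuRD couples a remodelling motor to histone deacetylases. Several of these proteins are known to affect how readily somatic cells are reprogrammed.

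Of the 10 genes, Eed, Jarid2 and Suz12 are shown with the 250 bases before the gene start, because these PRC2 genes shared 1 array, OSKH 1, as their highest. Sequences are from RefSeq on build GRCm38.p6, written 5′ to 3′ on the strand of the gene, with each CpG in capitals. The windows are chr7:89980977-89981226 on the minus strand for Eed, chr11:79992856-79993105 on the plus strand for Suz12 and chr13:44730524-44730773 on the plus strand for Jarid2, and each lies outside its gene.
Eed: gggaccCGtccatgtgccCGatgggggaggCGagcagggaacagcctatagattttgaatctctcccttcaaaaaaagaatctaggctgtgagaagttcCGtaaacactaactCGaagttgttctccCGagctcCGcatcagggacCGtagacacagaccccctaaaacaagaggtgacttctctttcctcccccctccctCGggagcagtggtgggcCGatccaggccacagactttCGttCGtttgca
Suz12: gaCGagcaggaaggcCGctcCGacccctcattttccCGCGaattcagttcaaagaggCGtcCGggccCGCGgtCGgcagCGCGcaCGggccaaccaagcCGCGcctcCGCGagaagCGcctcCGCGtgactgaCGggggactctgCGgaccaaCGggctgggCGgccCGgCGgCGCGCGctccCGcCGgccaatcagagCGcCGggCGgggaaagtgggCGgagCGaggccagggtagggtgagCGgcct
Jarid2: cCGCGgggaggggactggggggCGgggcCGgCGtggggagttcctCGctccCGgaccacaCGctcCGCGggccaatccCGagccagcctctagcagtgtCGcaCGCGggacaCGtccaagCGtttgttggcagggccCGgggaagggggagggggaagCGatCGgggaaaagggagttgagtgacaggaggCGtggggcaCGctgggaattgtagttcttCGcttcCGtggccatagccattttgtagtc

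The windows of these 3 genes differ in composition. Suz12 holds 37 CpGs and is 73.6% G and C, a CpG number that 2.20% of 32851 mouse windows of this length match or pass. Jarid2 holds 23 CpGs, which 13.3% of windows match or pass. Eed holds 12 CpGs and is 54.4% G and C, which 33.5% of windows match or pass, against a median of 6 CpGs over all windows. On both strands, the letters CCAAT (the CCAAT box) occur 1 time before Suz12 and 1 time before Jarid2, as in 33.9% of all windows. The letters GGGCGG (an Sp site) occur 3 times before Suz12 and 1 time before Jarid2, as in 32.7% of all windows. The letters GCGGGAA (an E2F site) occur 1 time before Suz12, as in 3.82% of all windows. None of these letters is in the Eed window. All 10 genes were matched to the promoter table, with 15 windows that hold 12 to 38 CpGs.

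The 10 genes were measured in every sample: all 12 probes were well above background on 8 of 8 arrays. For 6 of the 10 genes the highest and the lowest of the 8 arrays lay within 0.5 of each other on the log2 scale, as in 40.3% of all 22685 features tested. The median range over the 8 arrays was 0.33 for the 10 genes, 0.57 for 84 further genes of the same complexes and of the enzymes that remove their marks, and 0.60 for all features. The 10 genes had a median level of 4.47, and all features a median of 0.07. Their spread was not set against features of like brightness. In whole cultures, fewer cells of a type and less RNA per cell cannot be told apart.

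**Figure D1:**
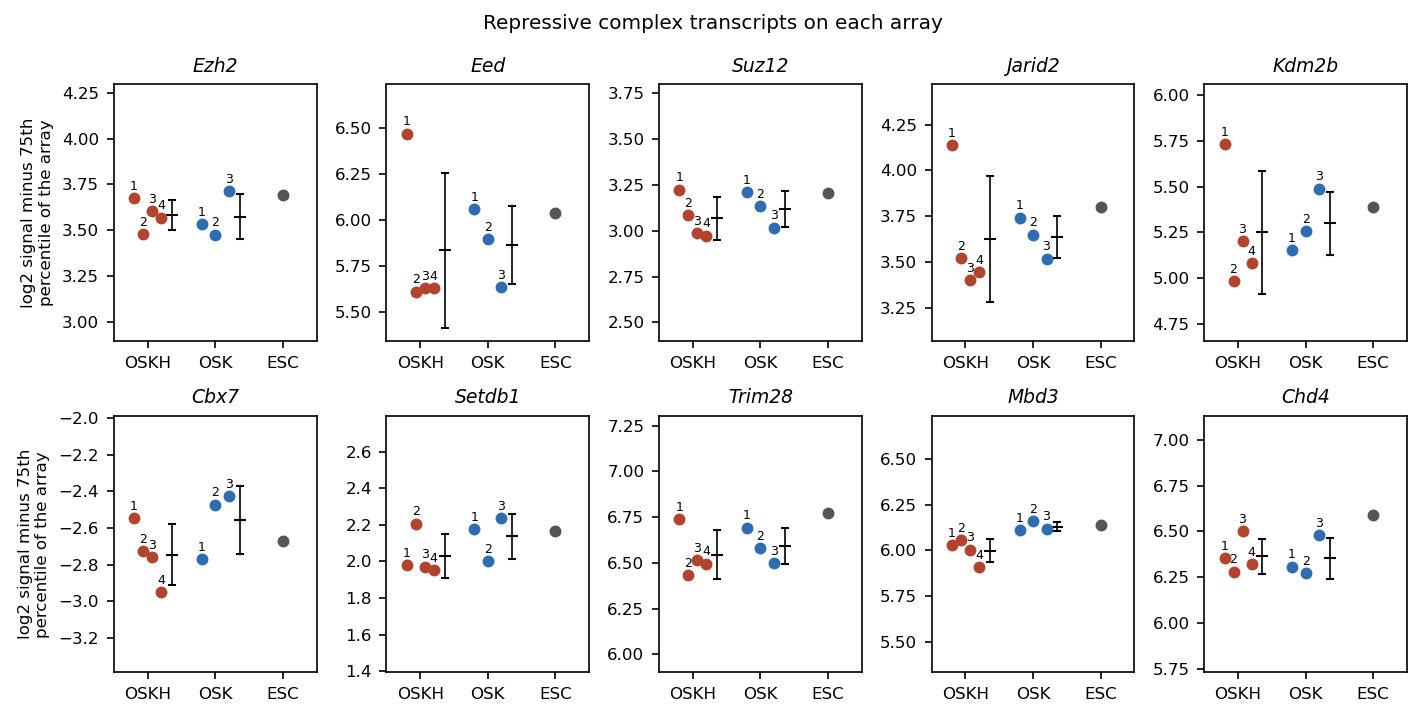
Level of each of the 10 genes on each array (log2 units, 0 being that array's 75th percentile), with OSKH arrays on the left, OSK arrays next and the ESC array on the right; each point is 1 array with its number, and bars are group mean ± SD. OSKH 1 stands above the other OSKH arrays for Eed, Jarid2 and Kdm2b, and the groups overlap for every gene except Mbd3.

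The catalytic subunit of PRC2, Ezh2, the methyltransferase itself, was among the steadiest genes. Its level was 3.68, 3.48, 3.60 and 3.57 on the OSKH arrays 1 to 4, against 3.53, 3.48 and 3.71 on the OSK arrays 1 to 3 and 3.69 on the ESC array. The groups overlapped fully, and the OSKH minus OSK difference was 0.01 (SE 0.09, limma adjusted p = 0.995). The 95% confidence interval of that difference, -0.21 to 0.23, has limits that correspond to at most a 1.17-fold difference in either direction.

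Eed, the subunit that binds trimethylated lysine 27 and stimulates the enzyme, had the widest range of the 10 genes, 0.86. Its level was 6.47, 5.61, 5.63 and 5.63 on the OSKH arrays, against 6.06, 5.90 and 5.64 on the OSK arrays and 6.04 on the ESC array. OSKH 1 was the highest array, 0.85 above the mean of the other OSKH arrays (1.80-fold), while those 3 lay within an SD of 0.01 of each other and just below the lowest OSK array. The group means were 5.83 ± 0.42 (SD, n = 4) for OSKH and 5.86 ± 0.21 (SD, n = 3) for OSK, a difference of -0.03 (SE 0.24, limma adjusted p = 0.990), and -0.24 without OSKH 1.

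Jarid2, which helps to bring PRC2 to its sites in embryonic stem cells, ran through the arrays in much the same order as Eed. It was at 4.14, 3.52, 3.40 and 3.44 on the OSKH arrays, against 3.74, 3.65 and 3.52 on the OSK arrays and 3.80 on the ESC array. OSKH 1 was again the highest, 0.68 above the mean of the other OSKH arrays, and ESC came second, followed by OSK 1 and OSK 2. The OSKH minus OSK difference was -0.01 (SE 0.19, limma adjusted p = 0.996), and -0.18 without OSKH 1.

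Suz12, the scaffold on which the PRC2 core is assembled, showed the same 3 arrays at the top on a smaller scale. Its level was 3.23, 3.09, 2.99 and 2.97 on the OSKH arrays, against 3.21, 3.14 and 3.02 on the OSK arrays and 3.20 on the ESC array. OSKH 1, OSK 1 and ESC were nearly level, and the other 5 arrays lay lower. The OSKH minus OSK difference was -0.05 (SE 0.10, limma adjusted p = 0.956).

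Kdm2b, which binds unmethylated CpG islands and recruits a variant PRC1 there, was the third gene with OSKH 1 more than 0.5 above the other OSKH arrays. The probe with the higher signal gave 5.73, 4.98, 5.20 and 5.08 on the OSKH arrays, against 5.15, 5.26 and 5.49 on the OSK arrays and 5.39 on the ESC array. A second Kdm2b probe gave 0.86, -0.23, -0.03 and -0.02 on the OSKH arrays, against 0.36, -0.01 and 0.29 on the OSK arrays and 0.26 on the ESC array. Both probes thus had OSKH 1 as the highest array and OSKH 2 as the lowest. The OSKH minus OSK difference was -0.05 by the brighter probe and -0.06 by the second, and limma gave the gene an adjusted p of 0.980. Without OSKH 1 the difference by the brighter probe was -0.21.

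Cbx7, the chromodomain protein that reads methylated lysine 27 in the canonical PRC1 of embryonic stem cells, was above background on every array, but at a negative level, that is below the 75th percentile of the signal. It was at -2.55, -2.73, -2.76 and -2.95 on the OSKH arrays, against -2.77, -2.47 and -2.43 on the OSK arrays and -2.67 on the ESC array. Of the 10 genes it had the largest OSKH minus OSK difference, -0.19 (SE 0.13, limma adjusted p = 0.864), and the 2 groups overlapped. Its interval ran from -0.50 to 0.12. Blocking on slide row gave -0.39, which is OSKH 4 minus the mean of the OSK arrays. The value was -0.30 without OSK 1, -0.12 without OSKH 4 and -0.13 without OSK 3. There was no call in any of these fits.

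Of the H3K9 pair, Trim28, the co-repressor, was at 6.74, 6.43, 6.52 and 6.50 on the OSKH arrays, against 6.69, 6.58 and 6.50 on the OSK arrays and 6.77 on the ESC array. The ESC array was above all 7 iPSC arrays, 0.03 over OSKH 1. Setdb1, the methyltransferase that Trim28 recruits, was at 1.98, 2.21, 1.97 and 1.95 on the OSKH arrays, against 2.18, 2.00 and 2.24 on the OSK arrays and 2.17 on the ESC array. OSKH 2 stood above the other OSKH arrays and inside the range of the OSK arrays. The OSKH minus OSK difference was -0.04 for Trim28 (SE 0.10, limma adjusted p = 0.966) and -0.11 for Setdb1 (SE 0.10, limma adjusted p = 0.912).

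Mbd3, the NuRD subunit that holds the deacetylase and remodelling parts together, was the 1 gene of the 10 whose OSKH and OSK arrays did not overlap, while 7.34% of all features did not overlap. The brighter of its 2 probes gave 6.03, 6.05, 6.00 and 5.91 on the OSKH arrays, against 6.11, 6.16 and 6.12 on the OSK arrays and 6.14 on the ESC array. All 4 OSKH arrays lay below all 3 OSK arrays, by a difference of means of -0.13 (SE 0.07), and limma did not call it (adjusted p = 0.838). By the second probe, OSKH at 2.72, 3.05, 2.75 and 2.72 overlapped OSK at 2.87, 3.18 and 2.82, with ESC at 3.03 and a difference of -0.15 (SE 0.13).

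Chd4, the remodelling motor of NuRD, was at 6.36, 6.28, 6.50 and 6.32 on the OSKH arrays, against 6.31, 6.27 and 6.48 on the OSK arrays and 6.59 on the ESC array. OSKH and OSK could not be separated (difference 0.01, SE 0.09, limma adjusted p = 0.990), and the ESC array was the highest of the 8. Trim28 and Chd4 were the 2 of 10 genes for which ESC lay outside the range of the iPSC arrays, as it did for 26.6% of all features.

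Set together, OSKH and OSK iPSCs did not differ detectably in any of the 10 genes: limma called 0 of 10 at an adjusted p under 0.05, where the background was 0.0% of 22685 features. At an unadjusted p under 0.05 it gave 0 of 10 genes, against 6.48% of all features. The differences ran from -0.19 for Cbx7 to 0.01 for Chd4, with 8 of 10 below 0 and a median of -0.05, beside 12175 of 22685 below 0 and a median of -0.01 for all features. The farther limit of the 95% confidence interval corresponded to a 1.52-fold difference for Eed, the widest of the 10, and to 1.17-fold for Ezh2, the narrowest on this measure. With slide row as a block, all 10 differences were below 0, from -0.39 for Cbx7 to -0.01 for Ezh2, with Mbd3 at -0.22, Setdb1 at -0.19 and Eed at -0.23, and limma called 0 of 10 (smallest adjusted p = 0.554), where the background was 0.207%. OSKH 4 is the only OSKH array in the slide row of the OSK arrays. The blocked difference is therefore OSKH 4 minus the mean of the OSK arrays, and rests on 1 OSKH array. Over all features its median was also below 0, at -0.04, against -0.01 without the block. A p that misses the threshold does not show that the groups are alike. Whether the arrays of a group are separate clones or cultures is not stated, so a p-value here reflects the spread among these samples alone, and that spread may be technical.

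**Figure D2:**
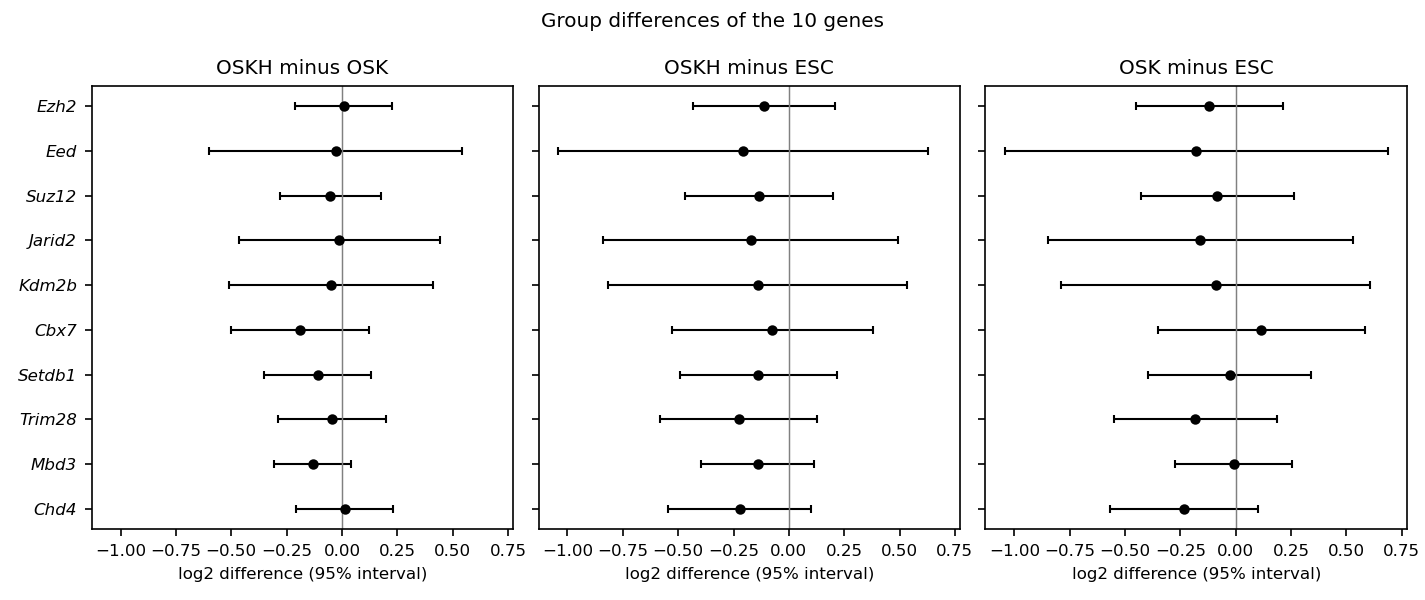
Difference in log2 level with its 95% confidence interval (limma) for each of the 10 genes, for OSKH minus OSK, OSKH minus ESC and OSK minus ESC; the vertical line marks 0. Every interval crosses 0, and the intervals of Eed, Jarid2 and Kdm2b are the widest.

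Against the ESC array, all 10 genes lay lower in OSKH iPSCs, by -0.23 for Trim28 to -0.07 for Cbx7 with a median of -0.14, beside 13591 of 22685 features lower and a median of -0.05. These differences depended on the scaling: with quantile normalization they ran from -0.09 to 0.01, with Trim28 at -0.09, Ezh2 at -0.03, Kdm2b at -0.03 and Mbd3 above 0. In OSK iPSCs 9 of 10 lay lower than in ESC with a median of -0.11, beside 12993 of 22685 features lower and a median of -0.05. The exception was Cbx7 at 0.12, and the lowest was Chd4 at -0.23. Both comparisons share the ESC array, so their signs are not independent. Limma called 0 of 10 genes in each, where 0.0% of features were called, and at an unadjusted p under 0.05 it gave 0 of 10 in each, against 4.36% of features for OSKH minus ESC and 6.02% for OSK minus ESC. With 1 ESC array the intervals were wider: Trim28 in OSKH minus ESC ran from -0.58 to 0.13 and Eed from -1.04 to 0.63.

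For each of the 10 genes the highest and lowest OSKH arrays lay farther apart than the means of OSKH and OSK. A range of 4 arrays usually exceeds a difference of group means, and the share over all features was not counted. Eed, Jarid2 and Kdm2b had the widest spread within OSKH, with SDs of 0.42, 0.34 and 0.33. OSKH 1 was the highest of the 8 arrays for 4 of 10 genes, Eed, Jarid2, Kdm2b and Suz12, while it was the highest for 20.4% of all features. It was more than 0.5 above the mean of the other OSKH arrays for 3 of 10 genes, beside 12.5% of all features. OSKH 4 was the lowest array for 4 of 10 genes, Suz12, Cbx7, Setdb1 and Mbd3, and for 19.4% of all features. The median SD of the 10 genes within OSKH was 0.13 with OSKH 1 and 0.07 without it, and within OSK it was 0.12. Over all features the same 3 medians were 0.21, 0.15 and 0.14, and over the 84 further genes 0.18, 0.12 and 0.12. The fall without OSKH 1 was thus not particular to the 10 genes. By Dixon's gap ratio at its 95% level, 1 OSKH array stood far from the other OSKH arrays for 3 of 10 genes, Eed, Jarid2 and Setdb1, beside 7.11% of all features. OSKH 1 and OSKH 4 also lay farthest from the median of the other iPSC arrays over all features. The root mean square distance was 0.54 for OSKH 1 and 0.50 for OSKH 4, against 0.29 to 0.37 for the other iPSC arrays.

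**Figure D3:**
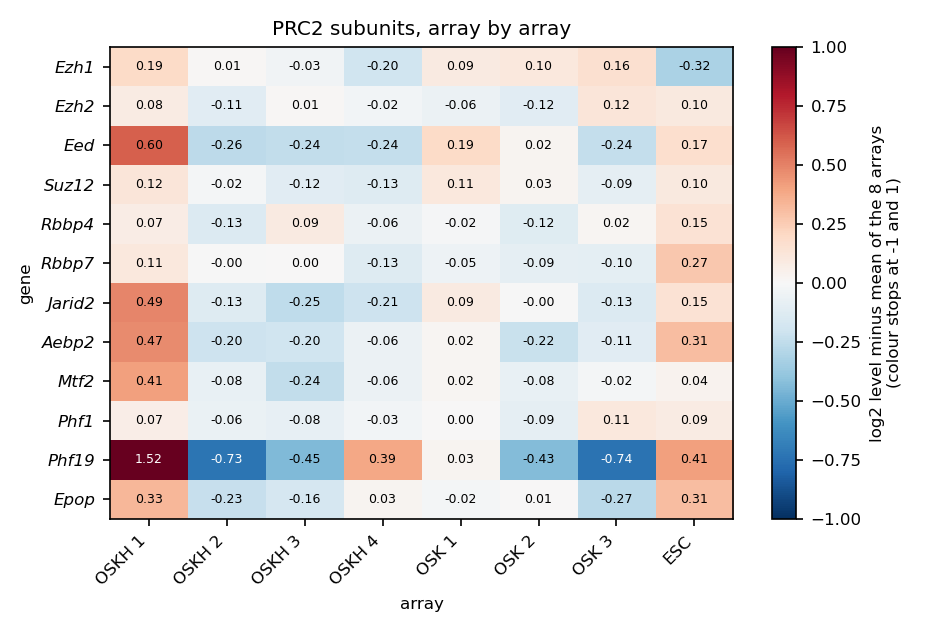
Heat map of the deviation of each gene of the PRC2 list (rows) from its mean over the 8 arrays (log2 units, colour, stopping at -1 and 1), by array (columns), with OSKH arrays on the left, OSK arrays next and ESC on the right. OSKH 1 is the highest array for 8 of the 12 genes, and the ESC array for 2.

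In the wider PRC2 list, OSKH 1 was the highest array for 8 of 12 genes, 3 of which are Eed, Jarid2 and Suz12, beside the 20.4% of all features. In the other lists it was the highest for 6 of 25 PRC1 genes, 4 of 25 H3K9 genes, 6 of 19 NuRD genes and 4 of 15 erasers, shares nearer to that of all features. Mtf2, an accessory subunit that binds CpG-rich DNA, was at 4.31, 3.82, 3.65 and 3.84 on the OSKH arrays, against 3.92, 3.82 and 3.88 on the OSK arrays and 3.93 on the ESC array. Aebp2, an accessory subunit found together with Jarid2, was at 2.01, 1.33, 1.33 and 1.48 on the OSKH arrays, against 1.55, 1.31 and 1.42 on the OSK arrays and 1.84 on the ESC array. For both genes OSKH 1 was the highest array, followed by ESC. The histone chaperone Rbbp4, which NuRD shares with PRC2, had the ESC array highest at 6.54, with the OSKH arrays between 6.26 and 6.48. Mtf2 and Aebp2 were picked after their values were seen. The mean level of the 10 pluripotent markers, all measured on all 8 arrays, was also highest on OSKH 1, at 5.45. It was 4.93 to 5.11 on the other OSKH arrays, 5.01 to 5.20 on the OSK arrays and 5.41 on the ESC array. OSKH 1 was the highest array for 4 of these 10 markers, and ESC for 3. Esrrb, with the widest range of them, was at 6.859 on OSKH 1 and 5.973 on ESC. Lin28a was lower on OSKH 1, at 5.715, than on ESC, at 6.125. The part of the marker levels in the PRC2 values was not tested.

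Among 14389 other named genes, the ones closest to Eed in their deviations over the 8 arrays were Scarb2, a lysosomal membrane protein, Mageb16, a member of the MAGE family, and Cd244a, a receptor of natural killer cells. Their root mean square distances to Eed were 0.073, 0.076 and 0.078 for Scarb2, Mageb16 and Cd244a. Scarb2 was at 1.33, 0.56, 0.47 and 0.39 on the OSKH arrays, against 0.98, 0.67 and 0.42 on the OSK arrays and 0.78 on the ESC array. Jarid2 was the 5th closest, at 0.081, while Suz12 ranked 1065, Kdm2b 1091 and Ezh2 3677. The likeness is a description over 8 arrays that share a slide.

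**Figure D4:**
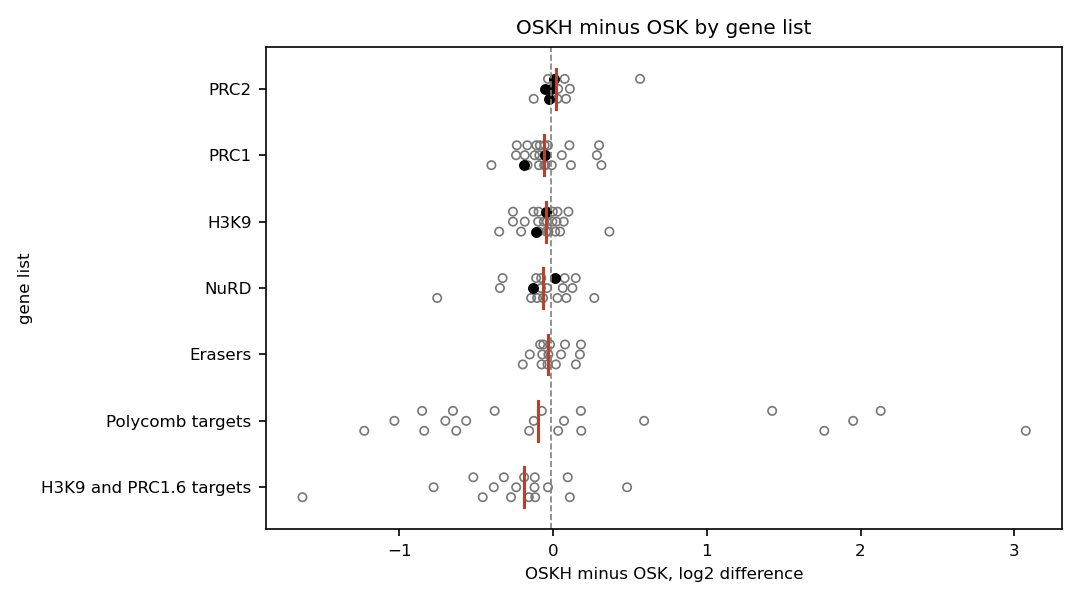
OSKH minus OSK difference in log2 level for each tested gene of the lists of silencing complexes, erasers and targets; filled points are the 10 genes described here, open points the other genes, the short red line is the median of a list and the dashed line the median of all features. The complexes lie mostly within 0.5 of 0, and the 2 target lists spread farther.

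No single gene of the wider complexes passed the threshold between OSKH and OSK iPSCs, and the lists as wholes were not tested. Limma called 0 genes in each of 5 lists: 12 of 12 PRC2 genes tested with a median difference of 0.02, 25 of 27 PRC1 genes at -0.06, 25 of 26 H3K9 genes at -0.04, 19 of 19 NuRD genes at -0.07 and 15 of 15 erasers at -0.03. At an unadjusted p under 0.05 the counts were 0, 1, 2, 1 and 0 in the same order, beside 6.48% of all features. The difference was below 0 for 5 of 12 PRC2, 19 of 25 PRC1, 18 of 25 H3K9, 11 of 19 NuRD and 9 of 15 eraser genes, beside 12175 of 22685 features. In PRC1, Pcgf5, a ring finger partner of a variant complex, differed by 0.31 (SE 0.12), and Bmi1, the ring finger partner of the canonical complex, by -0.40 (SE 0.18). In the H3K9 list, Pphln1 of the HUSH complex differed by 0.37 (SE 0.21). Zfp809, a zinc finger protein that brings Trim28 to retroviral sequences, differed by -0.35 (SE 0.12), and its groups did not overlap. In NuRD, the deacetylase Hdac2 differed by 0.27 (SE 0.11), without overlap, and Mbd2, which takes the place of Mbd3 in another form of the complex, by -0.33 (SE 0.17). In PRC2, Phf19, an accessory subunit, differed by 0.57 (SE 0.54), with OSKH 1 at 1.73 and the other OSKH arrays between -0.52 and 0.60, and Ezh1, the second methyltransferase, by -0.13 (SE 0.11). Of the erasers, the lysine 27 demethylase Kdm6a differed by 0.17 (SE 0.16) and Asxl2, a cofactor of the H2A deubiquitinase, by -0.20 (SE 0.10). The limma adjusted p of these 10 genes ran from 0.732 for Zfp809 to 0.914 for Phf19.

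Against ESC, limma also called 0 genes in each of these 5 lists for OSKH and for OSK. At an unadjusted p under 0.05 the counts for PRC2, PRC1, H3K9, NuRD and erasers were 0, 1, 1, 1 and 0 in OSKH minus ESC, beside 4.36% of all features. In OSK minus ESC they were 2, 1, 2, 3 and 0, beside 6.02% of all features. The 2 PRC2 genes in OSK minus ESC were Ezh1 at 0.44 (SE 0.16) and Rbbp7, a histone chaperone, at -0.35 (SE 0.12).

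The genes that these complexes are known to hold down had wider ranges over the arrays. Of 30 developmental and cell cycle genes widely reported as bound by Polycomb in mouse embryonic stem cells, 22 passed the filter on dim probes, and their median range over the 8 arrays was 2.56. Over the 14 of them that were well above background on all arrays it was 2.19, beside 0.60 for all features. The 22 genes were dim, with a mean level of -2.56 to -0.59 by array, where all features had a median level of 0.07. Their ranges were not set against features of like brightness. Limma called 0 of 22 in OSKH minus OSK, with 5 of 22 at an unadjusted p under 0.05, beside 6.48% of all features. These 5, Olig2, Cdkn2a, Cdkn2b, Hoxb13 and Hoxd13, were all lower in OSKH. Hoxd13 was well above background on only 1 of 4 OSKH arrays and 2 of 3 OSK arrays, and not on the ESC array. Of all 22 genes, 12 were lower in OSKH and 10 higher, with a median difference of -0.10. OSKH and OSK did not overlap for 5 of 22 genes, beside 7.34% of all features, with Eomes and Foxa2 higher in OSKH and Olig2, Cdkn2a and Cdkn2b lower. Against ESC, limma called 0 of 22 in OSKH and 0 of 22 in OSK. At an unadjusted p under 0.05 it gave 1 of 22 in each, beside 4.36% and 6.02% of all features.

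By the smallest p in each direction, Fgf5, a growth factor of the primed epiblast, and Cdkn2a, an inhibitor of the cell cycle, stood at the ends of this list. Fgf5 was at 0.99, 1.94, 2.73 and 3.45 on the OSKH arrays, against -0.60, 0.15 and 1.99 on the OSK arrays and 2.38 on the ESC array. The groups overlapped through OSK 3, and the difference was 1.76 (SE 0.77, limma adjusted p = 0.768). Cdkn2a was at 0.50, 0.12, 0.02 and 0.31 on the OSKH arrays, against 0.97, 1.07 and 1.22 on the OSK arrays and 0.55 on the ESC array. The OSKH and ESC arrays all lay below the OSK arrays, with an OSKH minus OSK difference of -0.85 (SE 0.13, limma adjusted p = 0.519).

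Of the markers of other cells, those of fibroblasts were also high on the array where this list had its highest mean. OSKH 4 was the highest array for 10 of the 22 Polycomb targets, with a mean level of -0.59 over the list, against -2.56 to -2.25 on the other OSKH arrays, -2.53 to -1.89 on the OSK arrays and -1.67 on the ESC array. The mean of 11 tested fibroblast markers of 12 was 0.65 on OSKH 4, against -1.58 to -1.08 on the other OSKH arrays, -2.19 to -1.26 on the OSK arrays and 0.60 on the ESC array. Of these 11, 7 were well above background on all arrays, and Postn on 2 of 4 OSKH arrays, 0 of 3 OSK arrays and the ESC array. The mean of 4 tested endoderm markers of 10 was 0.32 on OSKH 4, against -2.18 to -1.07 on the other OSKH arrays, -2.25 to -1.84 on the OSK arrays and -0.65 on the ESC array. Of these 4, Foxa2 and Sox7 are also on the Polycomb list. OSKH 4 was the highest array for 1 of the 4, Foxa2. Sox7 and Lama1 were highest on OSKH 1, and Dab2 on OSKH 3. Limma called 0 of 11 fibroblast, 0 of 4 endoderm and 0 of 10 pluripotent markers in OSKH minus OSK. At an unadjusted p under 0.05 it gave 1, 0 and 1 in that order, beside 6.48% of all features. The genes with the smallest p were Nanog, a core pluripotency factor, at 0.54 and Tdgf1, a Nodal co-receptor, at -0.09, the fibroblast markers Postn, which has no fold here, and Loxl1 at -0.08, and the endoderm markers Lama1 at -0.21 and Foxa2, which has no fold here. Foxa2 was well above background on 2 of 3 OSK arrays, and OSKH 4 had it at 4.03, against -2.86 to -1.24 on the other OSKH arrays and -4.40 to -2.93 on the OSK arrays. OSKH 4 and ESC also share slide column 1. Neither the part of such cells nor that of slide position in the target values was tested. OSKH 4 was the highest array for 0 of the 10 genes of the silencing complexes and for 11.1% of all features, so this count is near the background.

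**Figure D5:**
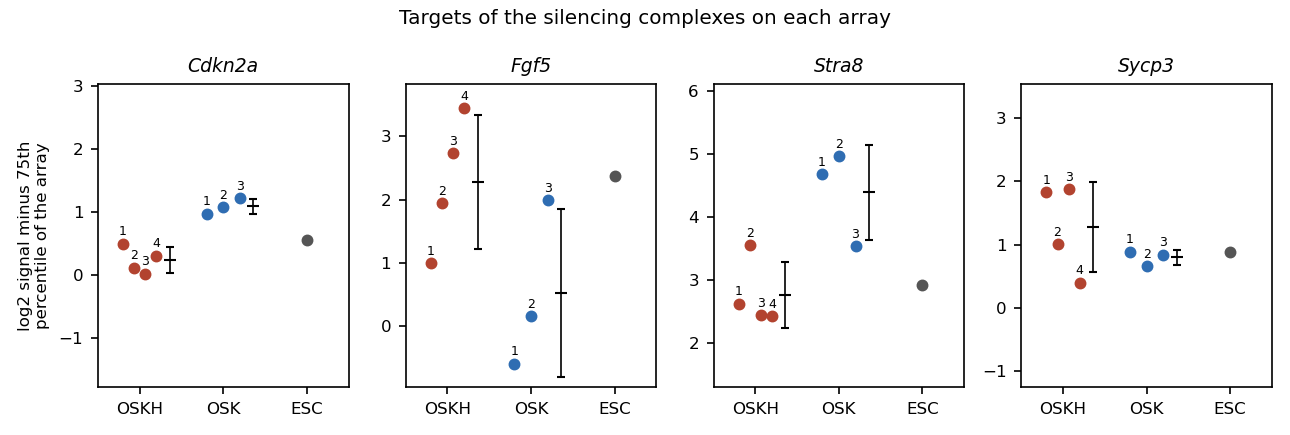
Level of Fgf5, Cdkn2a, Sycp3 and Stra8 on each array (log2 units, 0 being that array's 75th percentile), with OSKH arrays on the left, OSK arrays next and ESC on the right; bars are group mean ± SD. For Cdkn2a the OSKH and OSK arrays do not overlap, and for Stra8 they meet, with OSKH 2 at 3.55 and OSK 3 at 3.54.

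Of 17 germline genes widely reported as held silent by Setdb1 or by the variant complex PRC1.6, limma called 0 in OSKH minus OSK, and 3 had an unadjusted p under 0.05, beside 6.48% of all features. The difference was below 0 for 14 of 17, with a median of -0.19, beside 12175 of 22685 features and a median of -0.01, and the list as a whole was not tested. Of the 17, 15 were well above background on all arrays. Stra8, which starts the meiotic programme, was at 2.62, 3.55, 2.44 and 2.43 on the OSKH arrays, against 4.67, 4.96 and 3.54 on the OSK arrays and 2.93 on the ESC array, a difference of -1.63 (SE 0.42, limma adjusted p = 0.732) in OSKH minus OSK. OSK 1 and OSK 2 stood above the other 6 arrays. Sycp3, a component of the synaptonemal complex, was at 1.83, 1.01, 1.88 and 0.39 on the OSKH arrays, against 0.89, 0.66 and 0.84 on the OSK arrays and 0.89 on the ESC array, a difference of 0.48 (SE 0.37, limma adjusted p = 0.883). Its groups overlapped because OSKH 4 was the lowest of all. The groups did not overlap for 2 of 17 genes, beside 7.34% of all features: for Dazl, which binds RNA in germ cells, with -0.78 (SE 0.21), and for Mael, of the piRNA pathway, with -0.46 (SE 0.19). Against ESC, limma called 0 of 17 in OSKH and 0 of 17 in OSK. At an unadjusted p under 0.05 it gave 0 and 1 of 17, beside 4.36% and 6.02% of all features.

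The 8 arrays were alike in depth of signal. Their 75th percentile of signal was 424 to 501, the share of probes well above background was 51.4% to 59.0%, and 0 probes were saturated. One slide carried all of them: OSKH 1 to 3 and ESC filled its first row, and OSKH 4 and OSK 1 to 3 its second, so that slide row and group were largely the same division. Precision is limited by how few arrays there are.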

How the data were processed

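RNA was labelled with Cy3, per the labels. Per the file headers, Agilent Feature Extraction 11.5.1.1, also named in the submitters' processing notes, produced the deposited spot intensity, background-subtracted and detrended but not scaled between arrays, with flags of 0 or 1 for well above background, saturation and outliers. The series' deposited log2 value table equalled the log2 of that intensity minus 1 constant per array within 0.01, which settles its scale, centring and direction. Its column medians were -3.71 to -3.60, and no source used here names the software behind it.

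Control spots and outlier-flagged spots were left out, the rest were averaged per probe, and the 75th percentile of each array was subtracted on the log2 scale. A probe was tested when 3 or more of the 8 arrays had it well above background. Symbols came from a GRCm38.p6 RefSeq table, which named 27650 probes and left 28017 unnamed. The probe of a gene with the highest mean was used, which gave 22685 features. Groups came from the sample titles. All 8 arrays entered 1 fit of 3 group means in limma 3.58.1 under R 4.3.3, p-values being adjusted by Benjamini-Hochberg over every feature, with 0.05 as the threshold. There were 5 residual degrees of freedom and 1.85 prior ones, and ESC is assumed to vary like the iPSC arrays. In simulated data of 22685 features with 200 changed, for OSKH minus OSK, 51% of 2-fold and 85% of 4-fold changes were recovered, with 8 false calls among 144.

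The 10 genes, the wider lists and the tests were chosen with earlier results of these data known. Beyond the 10 genes, the rule named up to 4 called genes of each list, or without any the gene with the smallest p in each direction, and the 3 genes nearest to Eed in mean-centred values. Others are named after their values were seen. No coordinates of the array annotation are used.

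Arrays numbered 1 to 3 share a slide column across both iPSC groups, per the file headers. ESC and OSKH 4 share slide column 1. Deviations of same-numbered arrays correlated at 0.489, 0.206 and 0.365, so the numbers were also fitted as a block. That fit held OSKH 1 to 3 and OSK 1 to 3 only. The other alternatives were normexp on the median signal (the files hold no mean signal) with an offset of 50, quantile and median scaling, the value table, the mean of the probes of a gene, no filter or a filter on all arrays, iPSC arrays alone, slide row as a block, and each array left out.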

Additional observations from a re-analysis of the deposited data

Results flagged for a closer look

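Among the 4 OSKH arrays, 1 array stood far from the others for 3 of the 10 genes, where its gap to the nearest array took up more of the range of the group than Dixon's critical value for 4 samples. Eed on OSKH 1 was at 6.471, with a gap of 0.976 of the range, and Jarid2 on OSKH 1 was at 4.137, with a gap of 0.838. Setdb1 on OSKH 2 was at 2.207, with a gap of 0.889, although its range over all 8 arrays was 0.28. Chance flags about 1 in 20 groups, and 1613 of 22685 features (7.11%) passed the same limit in OSKH, 449 of them (1.98% of all features) through a high OSKH 1. For Eed, the excess of OSKH 1 over the mean of the other OSKH arrays was 0.86 with normexp, 0.81 with quantile normalization, 0.89 with median scaling and 0.85 in the value table.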

How the results depend on the processing

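Members of the silencing complexes called by limma were 0 of 10 in each comparison under each setting run, and the smallest adjusted p over the settings was 0.491 for OSKH minus OSK, 0.608 for OSKH minus ESC and 0.642 for OSK minus ESC. With slide row as a block, 47 features (0.207%) were called for OSKH minus OSK and 38 (0.168%) for OSK minus ESC, and without the filter on dim probes 11 were called for OSKH minus ESC and 9 for OSK minus ESC, against 0 in the reported fits; the cause was not tested. In the slide row fit the row shift comes from OSKH 4 against OSKH 1 to 3, so OSKH minus OSK rests on OSKH 4 alone. For OSKH minus OSK the array number as a block changed no call. This paired fit left out the ESC array and OSKH 4, which has no OSK array of its number. The difference in it was 0.039 for Eed, 0.049 for Jarid2 and 0.0063 for Kdm2b, each with the sign turned. Leaving out OSKH 4 without pairing gave the same values. With median scaling Jarid2 was at 0.0058, and with slide row as a block Ezh2 was at -0.0057 and Chd4 at -0.030. For OSKH minus ESC, Mbd3 turned to 0.0064 with quantile normalization. For OSK minus ESC, the values turned with slide row as a block to 0.095 for Eed, 0.045 for Suz12, 0.081 for Jarid2, 0.13 for Kdm2b, 0.073 for Setdb1 and 0.11 for Mbd3, with quantile normalization to 0.0059 for Kdm2b, 0.014 for Setdb1 and 0.13 for Mbd3, and with normexp to 0.048 for Setdb1 and 0.019 for Mbd3. Leaving out 1 array at a time, OSKH minus OSK ran from -0.034 to 0.075 for Chd4, -0.24 to 0.069 for Eed, -0.041 to 0.078 for Ezh2, -0.18 to 0.064 for Jarid2, -0.21 to 0.045 for Kdm2b and -0.11 to 0.0065 for Trim28, and OSK minus ESC from -0.077 to 0.040 for Setdb1. In all, 24 of 170 values for OSKH minus OSK changed sign, 1 of 150 for OSKH minus ESC and 12 of 150 for OSK minus ESC, all between differences that limma did not call. Many of these values could not change. Leaving out an OSK array cannot move OSKH minus ESC, leaving out an OSKH array cannot move OSK minus ESC, and some settings repeat the values of others. These counts are therefore not shares of independent checks. The limits are the 1 ESC array, the near match of slide row and group, and the small number of arrays.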

Other observations

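Chd3, a remodelling motor that can take the place of Chd4 in NuRD, had the widest range over the 8 arrays in the NuRD list, 4.06. It was at 2.72, 2.47, 2.54 and 3.31 on the OSKH arrays, against 1.94, 6.00 and 2.61 on the OSK arrays and 2.29 on the ESC array. OSK 2 alone stood apart, and Chd4 was at 6.27 on that array, beside 6.31 on OSK 1. Chd3 was chosen after its values were seen.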
